A study of Mus musculus with 5 samples.

Results

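The serum amyloid A genes and 4 companion acute-phase genes were followed in epithelial tumour cells of the mouse prostate. They were taken as every probe set whose single gene symbol in the platform annotation is Saa1, Saa2, Saa3, Saa4, Lcn2, Hp, Lbp or Orm1. This gave 11 probe sets for 8 of the 18193 genes measured. Saa1 and Saa2 had been picked for their difference between the genotypes in the same 5 arrays, and the companions were added with those results known. The genotype differences of all 8 genes are therefore given as a description with no test.

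Tumours of C57BL/6 mice were dissociated, tumour cells were isolated with EpCAM beads on ice, and total RNA was hybridised to single-channel Affymetrix arrays. In the nTKO genotype the Probasin driver, active in prostate epithelium, acts on floxed (L/L) alleles that include Smad4 and Pygo2. In the nDKO genotype it acts on the same alleles except Pygo2, so that loss of Smad4, the common mediator of TGF-beta signals, is shared by both groups. The 2 nTKO mice were 31.43 (nTKO 1) and 16 weeks old (nTKO 2), and the 3 nDKO mice 15.86 (nDKO 1), 10.71 and 10.71 weeks. The nTKO mice were thus the older ones, and an effect of age cannot be fully told apart from one of genotype. Pygo2, a co-activator of beta-catenin that reads methylated histone H3, had log2 signals of 7.30 and 6.35 in nTKO cells, against 8.65, 8.62 and 8.72 in nDKO cells. The epithelial surface protein Epcam, on which the cells were selected, had 13.24 and 13.41 in nTKO cells, against 12.94, 13.48 and 13.35 in nDKO cells. Every value below is a log2 signal, so that a difference of 1 is a change by a factor of 2, and array medians lay between 4.94 and 4.98. nTKO 1 and nDKO 1 differed from the other arrays in squamous genes, with mean log2 signals over 10 squamous markers of 9.36 and 10.23, against 6.21 to 7.11 on the other arrays.

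Acute-phase proteins are secreted mainly by the liver when interleukin-6, interleukin-1 and tumour necrosis factor signal tissue injury or infection. Serum amyloid A1 and A2 circulate on high-density lipoprotein and are the most strongly induced of them in mice. Saa3 can be made outside the liver, by macrophages, adipocytes and mucosal epithelium. Saa4 is the constitutive member of the family. The members are transcribed through C/EBP factors, NF-kB and STAT3, and epithelial tumour cells can express several of them.

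The Saa genes lie side by side on mouse chromosome 7, in the order Saa3, Saa4, Saa1 and Saa2 in the assembly GRCm38.p6. Start regions are shown because C/EBP is a shared regulator of the members, and because Saa1 and Saa2 are near copies there. RefSeq promoter sequences, from 250 bases before to 50 bases after the annotated start on GRCm38.p6, matched 5 of the 8 genes (Saa1, Saa2, Saa3, Saa4 and Lcn2). The regions of Saa1, Saa2, Saa3 and Lcn2 follow, on the minus strand for Saa1 (chr7:46742931-46743230), Saa3 (chr7:46715627-46715926) and Lcn2 (chr2:32387690-32387989) and on the plus strand for Saa2 (chr7:46751583-46751882). Capitals mark each match to the C/EBP-like letters TTGCNNAA on either strand.
Saa1: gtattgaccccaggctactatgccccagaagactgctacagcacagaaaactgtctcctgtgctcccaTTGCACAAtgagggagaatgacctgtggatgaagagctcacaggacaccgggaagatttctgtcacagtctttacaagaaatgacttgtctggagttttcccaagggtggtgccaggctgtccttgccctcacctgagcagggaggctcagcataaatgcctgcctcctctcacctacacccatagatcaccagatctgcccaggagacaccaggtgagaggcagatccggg
Saa2: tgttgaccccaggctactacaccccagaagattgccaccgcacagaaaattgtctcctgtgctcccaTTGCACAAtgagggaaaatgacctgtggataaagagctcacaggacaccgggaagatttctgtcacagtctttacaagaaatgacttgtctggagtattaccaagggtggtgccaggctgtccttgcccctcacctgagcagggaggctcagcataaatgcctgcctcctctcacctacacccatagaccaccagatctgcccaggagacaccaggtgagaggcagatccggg
Saa3: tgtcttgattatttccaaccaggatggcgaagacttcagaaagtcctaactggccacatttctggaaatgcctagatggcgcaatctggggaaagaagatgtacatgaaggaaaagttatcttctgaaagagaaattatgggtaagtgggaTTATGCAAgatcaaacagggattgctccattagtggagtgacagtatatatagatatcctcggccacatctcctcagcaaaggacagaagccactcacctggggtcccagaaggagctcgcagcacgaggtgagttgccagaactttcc
Lcn2: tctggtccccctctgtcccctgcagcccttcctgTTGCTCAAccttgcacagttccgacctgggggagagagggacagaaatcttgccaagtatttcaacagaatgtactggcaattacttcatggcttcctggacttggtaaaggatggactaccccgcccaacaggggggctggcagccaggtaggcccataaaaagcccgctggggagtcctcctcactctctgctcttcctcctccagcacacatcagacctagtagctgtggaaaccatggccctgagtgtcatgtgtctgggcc

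Aligned end to end, the Saa1 and Saa2 start regions shared 287 of 299 aligned bases (12 mismatches and 2 gap positions), or 95.3% of the alignment. Saa1 and Saa3 shared 54.1% of theirs, and Saa1 and the unrelated Lcn2 55.6%, so that Saa3 was no closer to Saa1 here than Lcn2 was. The letters TTGCNNAA were found once in the regions of Saa1, Saa2, Saa3 and Lcn2 and at 2 positions in that of Saa4, and 10.8% of all 32851 promoters in the table held them. They began 182 bases before the start in Saa1, 183 in Saa2, 99 in Saa3 and 216 in Lcn2. The STAT letters TTCNNNGAA and the NF-kB consensus were searched on both strands too and were in none of the 5 regions, against 8.3% and 8.46% of all promoters. These matches describe letters in a short window only.

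The 2 acute serum amyloids, Saa1 and Saa2, had their 2 highest signals in the nTKO mice. Saa1 measured 11.65 and 10.79 in nTKO cells, against 8.86, 9.13 and 9.52 in nDKO cells. The groups did not overlap, and the lower nTKO mouse stood 1.27 above the highest nDKO mouse, a gap that compares with a range of 0.66 among the nDKO mice. Means were 11.22 ± 0.61 in nTKO cells (SD, n = 2) and 9.17 ± 0.33 in nDKO cells (SD, n = 3), a difference of 2.05 or 4.14-fold. By this difference Saa1 ranked 1 of 18193 genes from the top, which is a restatement of why it was chosen. The difference was 1.62 without nTKO 1 and 2.48 without nTKO 2.

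A further Saa1 probe set gave 11.04 and 10.02 in nTKO cells, against 7.93, 8.28 and 8.67 in nDKO cells. Its difference was 2.24 and the order of the 5 mice was the same as in the first probe set. The annotation names this probe set Saa1, but the accession it cites belongs to Saa2 in the RefSeq gene table, and its name carries the suffix that Affymetrix uses for probes shared between genes. The probe set named Saa2 cites the same accession and carries the suffix for probes that may cross-hybridise. It measured 6.32 and 4.73 in nTKO cells, against 3.53, 4.18 and 4.19 in nDKO cells, so that the nTKO mice were again the higher ones. The means were 5.53 ± 1.12 (SD, n = 2) and 3.97 ± 0.38 (SD, n = 3), a difference of 1.56 that was 0.76 without nTKO 1. Saa1 and Saa2 transcripts therefore cannot be told apart with certainty by these 3 probe sets.

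Saa3 followed the same order of mice as Saa1. It measured 11.84 and 9.88 in nTKO cells, against 8.21, 9.05 and 9.49 in nDKO cells. The groups did not overlap, but nTKO 2 lay only 0.39 above nDKO 3, less than the range of 1.28 among the nDKO mice. The means were 10.86 ± 1.39 in nTKO cells (SD, n = 2) and 8.92 ± 0.65 in nDKO cells (SD, n = 3), a difference of 1.94 or 3.85-fold. Much of this came from 1 mouse, since the difference was 0.96 without nTKO 1 and 2.92 without nTKO 2.

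Saa4, the constitutive member, differed by less in log2 units but evenly. Its brighter probe set measured 5.08 and 5.01 in nTKO cells, against 3.83, 3.81 and 4.56 in nDKO cells, a difference of 0.98. The 2 nTKO mice were within 0.07 of each other, where those of Saa3 were 1.96 apart. The other Saa4 probe set showed no such step, with 3.66 and 3.66 in nTKO cells, against 3.44, 3.66 and 3.69 in nDKO cells. The probe sets disagreed, both lay below the median gene level of 6.32, and the mean of the 2 gave a difference of 0.52.

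Lipocalin 2 (Lcn2), which withholds iron from bacteria by binding their siderophores and is made by neutrophils and by stressed epithelium, was bright in both groups. It measured 13.28 and 12.99 in nTKO cells, against 12.55, 13.27 and 13.11 in nDKO cells. The groups overlapped, and the difference of 0.16 was smaller than the range of 0.72 among the nDKO mice. Haptoglobin (Hp), the plasma protein that captures free haemoglobin, measured 10.29 and 8.90 in nTKO cells, against 9.38, 7.80 and 8.38 in nDKO cells. Here nDKO 1 was above nTKO 2, so that the groups overlapped although their means differed by 1.08. The higher Hp value of each genotype was that of nTKO 1 and nDKO 1, the oldest mouse of its genotype and also the 2 arrays with high squamous genes.

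The lipopolysaccharide-binding protein Lbp, which hands bacterial lipid to CD14, measured 9.89 and 9.67 in nTKO cells, against 8.70, 9.82 and 9.62 in nDKO cells. Its difference of 0.40 rested on the low value of nDKO 1 and was 0.06 without that mouse. A dimmer Lbp probe set gave 5.33 and 4.96 in nTKO cells, against 4.84, 4.96 and 4.88 in nDKO cells. Orosomucoid 1 (Orm1), a plasma carrier of basic drugs and lipids, was raised on a single array. It measured 5.28 and 3.64 in nTKO cells, against 3.95, 3.87 and 3.95 in nDKO cells, so that nTKO 2 was the lowest of the 5 mice and the difference of 0.54 turned to -0.28 without nTKO 1.

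**Figure D1:**
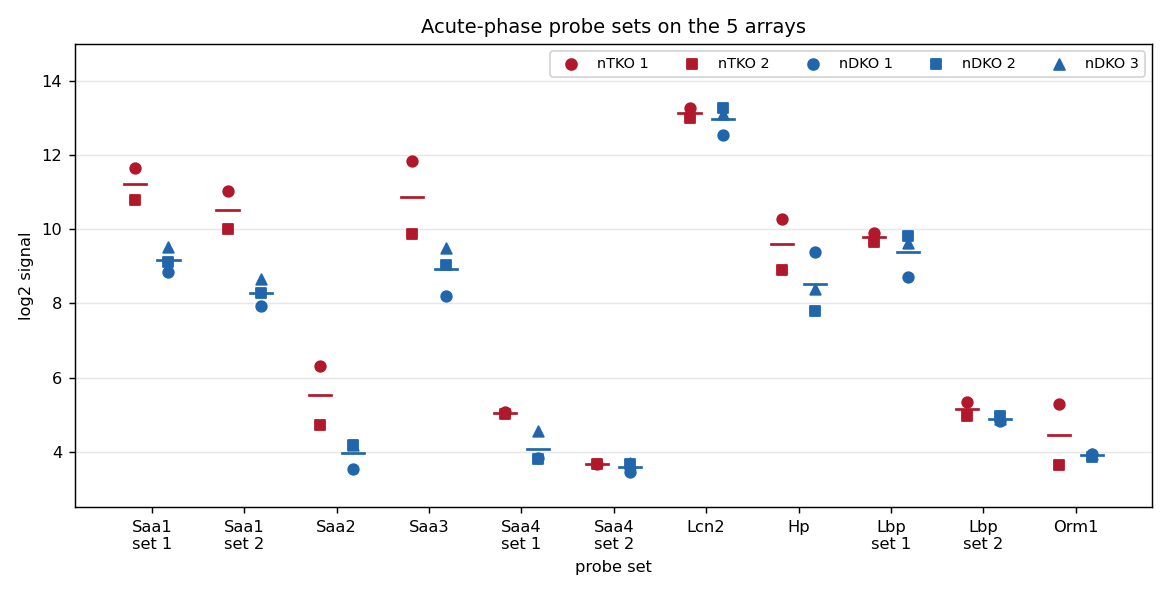
Log2 signal (vertical axis) of the 11 probe sets (horizontal axis) on each array, with nTKO mice in red at the left of each pair and nDKO mice in blue, and short lines at the group means. The red points of Saa1, Saa2, Saa3 and the first Saa4 probe set lie above all blue points, while those of Lcn2, Hp, Lbp and Orm1 overlap with them.

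Across the 8 genes, each by its brightest probe set, the nTKO mean was the higher one for 8 of 8, against a background of 60% of all genes. Both nTKO mice were above every nDKO mouse for 4 of the 8 genes (Saa1, Saa2, Saa3 and Saa4), where the background was 8.13% of genes, and nothing is read from this since the genes were chosen on the same contrast. The median difference was 1.03 over the 8 genes, 1.75 over the 4 Saa genes, 0.47 over the 4 companions and 0.028 over all genes. With limma and Benjamini-Hochberg adjustment over all genes, 0% of the 18193 genes, members included, had an adjusted p under 0.05. The smallest limma adjusted p was 0.853, and Pygo2, with a difference of -1.84, did not pass either. A count of 0 passing would thus be found for any list of genes, and nothing is read from it for the lists below. Unadjusted p-values under 0.05 were found for 447 higher genes (2.46%) and 242 lower genes (1.33%).

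The members also differed in how the 2 nTKO mice compared with each other. nTKO 1 was the highest of the 5 arrays for 8 of 8 genes, against 30.8% of all genes. nDKO 1 was the lowest for 5 of 8 (Saa1, Saa2, Saa3, Lcn2 and Lbp), against 30.6% of all genes. Nothing is read from these counts either, since the genes were chosen with the genotype contrast known. nTKO 1 exceeded nTKO 2 by 1.96 for Saa3, 1.64 for Orm1, 1.59 for Saa2 and 1.39 for Hp. The gap was 0.86 for Saa1, 0.29 for Lcn2, 0.22 for Lbp and 0.07 for Saa4. Relative to the nDKO mean, nTKO 2 was higher by 1.62 for Saa1, 0.96 for Saa3, 0.94 for Saa4 and 0.76 for Saa2, but by 0.38 for Hp, 0.29 for Lbp and 0.01 for Lcn2, and it was lower for Orm1 (-0.28).

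**Figure D2:**
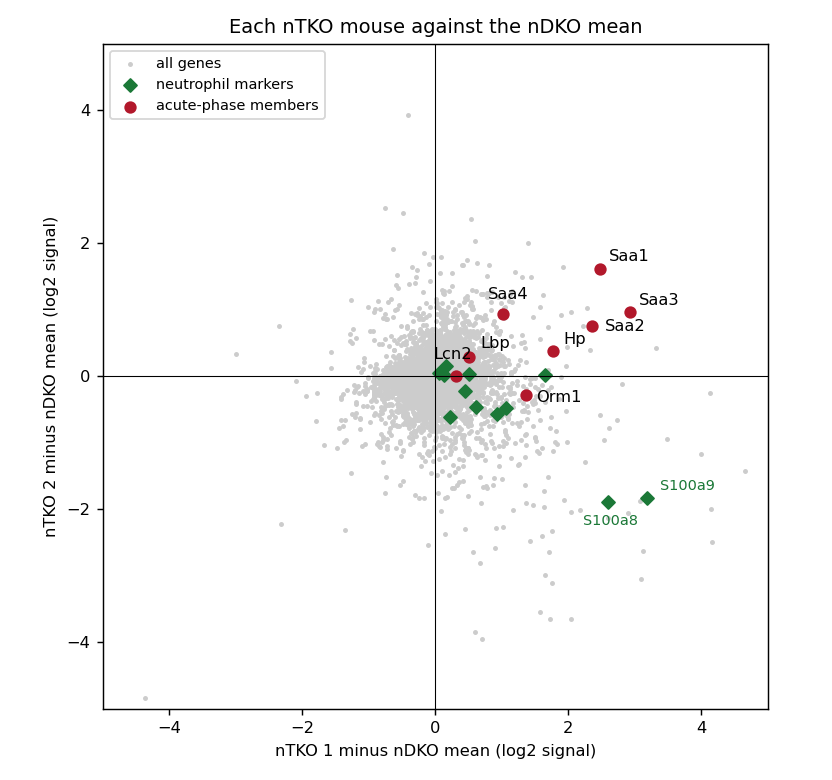
Difference of nTKO 1 (horizontal axis) and of nTKO 2 (vertical axis) from the nDKO mean, in log2 signal, for the acute-phase genes (red), neutrophil markers (green diamonds) and all genes (grey). Saa1 lies at 2.48 and 1.62, in the quadrant where both mice are higher, while S100a8 and S100a9 lie at 2.60 and 3.19 for nTKO 1 and at -1.89 and -1.82 for nTKO 2.

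Some members are also made by blood cells, and several neutrophil markers were high with them in nTKO 1. The calgranulin gene S100a8 measured 12.79 and 8.30 in nTKO cells, against 10.53, 9.66 and 10.37 in nDKO cells, and S100a9 measured 12.94 and 7.93, against 10.01, 9.26 and 9.99. Both calgranulins are also listed below among the epithelial NF-kB and interleukin-17 response genes, and are thus not markers of neutrophils alone. Of 14 neutrophil markers 12 were measured, and their mean log2 signal was 7.56 in nTKO 1 and 6.12 in nTKO 2, against 6.42 to 6.69 in nDKO mice. nTKO 1 was the highest array for 8 of the 12 (30.8% of all genes) and nTKO 2 the lowest for 6 (17.5% of all genes). Csf3r, Il1r2 and Cxcr2 of this list were, like both calgranulins, highest in nTKO 1 and lowest in nTKO 2. Relative to the nDKO mean, nTKO 1 differed by 0.93 for Csf3r, 1.07 for Il1r2 and 0.62 for Cxcr2. For nTKO 2 the same differences were -0.57, -0.47 and -0.45. Itgam did not share this order and was highest in nDKO 3 and lowest in nDKO 2. Among granule genes, Mpo, Elane, Camp and Ngp lay between 3.43 and 4.74 on every array, and Mmp8 had 6.01 and 4.38 in nTKO cells, against 4.49, 4.19 and 4.38 in nDKO cells. The lactoferrin gene Ltf, which secretory epithelium also expresses, had 13.91 and 13.07 in nTKO cells, against 13.92, 13.65 and 13.48 in nDKO cells. In nTKO 2, the array with the lowest mean of these markers, Saa1 measured 10.79 and Saa3 9.88, as given above. In bulk RNA, fewer cells of a type and less RNA per cell cannot be told apart.

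Macrophages are a known source of Saa3 and of Lcn2. Of 12 macrophage markers 11 were measured, with mean log2 signals of 7.71 and 7.24 in nTKO cells, against 7.61, 7.03 and 8.17 in nDKO cells. The highest value was that of nDKO 3. The mean was higher in nTKO cells for 3 of the 11, against 60% of all genes. Both nTKO mice were below every nDKO mouse for 1 of the 11, against 4.71% of all genes. This was the complement gene C1qa, with 7.46 and 7.27, against 8.20, 7.64 and 9.09 (difference -0.95, limma adjusted p = 0.853). The related C1qb (-0.18) and C1qc (-0.075) overlapped between the groups. Hepatocyte markers, as a sign of liver RNA, lay low in all mice. Mean log2 signals over 11 of 11 measured were 4.52 and 4.53 in nTKO cells, against 4.37 to 4.50 in nDKO cells, and albumin (Alb) had 3.39 and 3.25, against 3.13, 3.13 and 3.02. Of the 11, 10 were below the median gene level on every array. Fibroblast and adipocyte markers (9 of 10 measured) had means of 4.43 and 4.63 in nTKO cells, against 4.36 to 4.57 in nDKO cells. Of the 9, 8 were below the median gene level on every array. The exception, Dcn, had 6.41 and 9.52 in nTKO cells, against 7.87, 9.39 and 9.03 in nDKO cells. Epithelial markers (8 of 8 measured) had means of 12.44 and 12.59 in nTKO cells, against 12.59 to 12.64 in nDKO cells. These means hide opposite patterns. Krt5 had 12.35 and 10.52 in nTKO cells, against 13.10, 10.87 and 10.81 in nDKO cells. The other epithelial markers had their lowest values in nTKO 1 and nDKO 1, such as Cldn4, with 11.07 and 11.96, against 11.48, 12.10 and 11.99. The part of these cell types in the Saa differences was not tested.

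**Figure D3:**
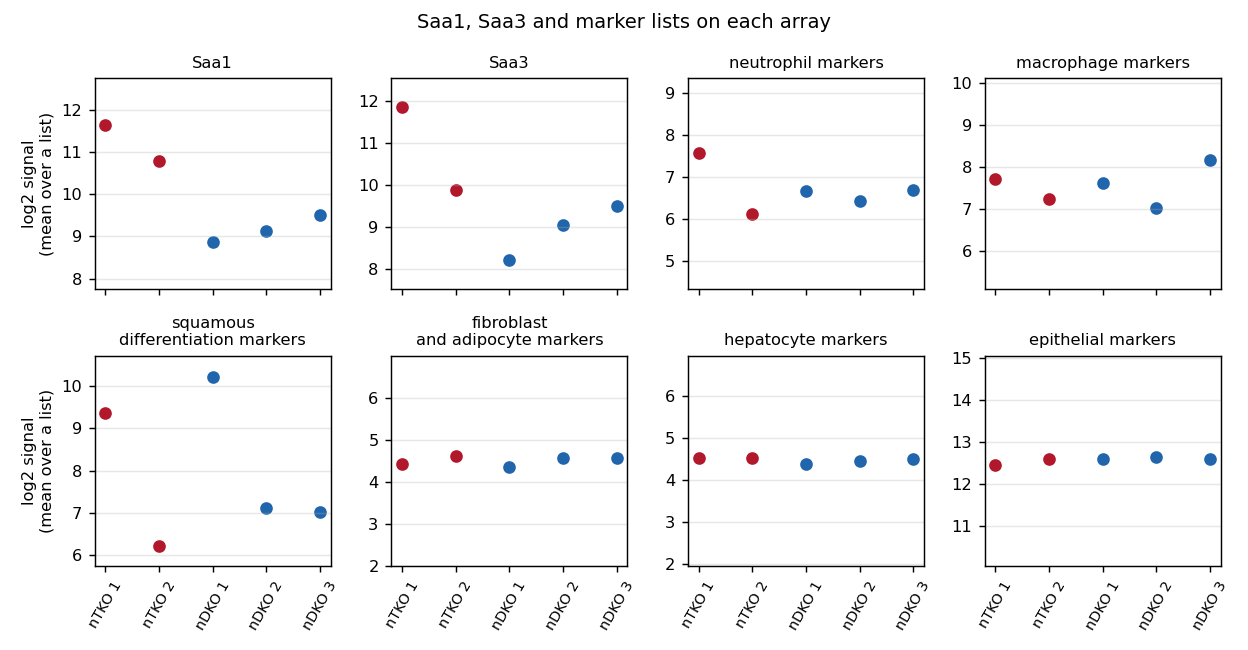
Log2 signal of Saa1 and Saa3 and the mean log2 signal of 6 marker lists (vertical axes, each spanning the same number of log2 units) on the 5 arrays (horizontal axis), nTKO in red and nDKO in blue. Saa1 and Saa3 are higher in both nTKO mice, neutrophil markers are highest in nTKO 1 (7.56) and lowest in nTKO 2 (6.12), and squamous markers are highest in nDKO 1 (10.23) and nTKO 1 (9.36).

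The cytokines that induce acute-phase proteins and their receptors were measured for 17 of 18 listed genes, and 0 passed the limma test in either direction, with 0 at an unadjusted p under 0.05. Of the 17, 15 had a higher nTKO mean (60% of all genes), with a median difference of 0.12 beside 0.028 over all genes. For 10 of the 17, nTKO 1 was the highest array (30.8% of all genes), and for 5 nTKO 2 was the lowest (17.5% of all genes). Of the 17, 7 lay below the median gene level on every array. Interleukin 6 (Il6), the main inducer in liver, lay at 2.61 and 2.53 in nTKO cells, against 2.46, 2.35 and 2.53 in nDKO cells, below the median gene level throughout. Interleukin 1 beta (Il1b) had 9.94 and 7.71 in nTKO cells, against 8.11, 8.41 and 8.60 in nDKO cells, highest in nTKO 1 and lowest in nTKO 2, the same 2 mice as the extremes of S100a8. Tumour necrosis factor (Tnf) was higher in both nTKO mice by a small step (6.90 and 6.95, against 6.72, 6.84 and 6.84). It was the only 1 of the 17 with both nTKO mice above every nDKO mouse, against 8.13% of all genes. The leukaemia inhibitory factor Lif (0.38) and the shared signal chain of the interleukin-6 family Il6st (0.21) were among those with the smallest p, and their groups overlapped or tied.

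Signal and transcription factors of the response were measured for 16 of 18, with 0 passing and 1 higher at an unadjusted p under 0.05. That gene was Saal1, the chromosomal neighbour of Saa3 described below. Their median difference was 0.047, with 8 of 16 higher (60% of all genes). Stat3, the factor downstream of interleukin 6, had 10.33 and 10.22 in nTKO cells, against 10.08, 10.18 and 10.22 in nDKO cells, and its feedback inhibitor Socs3 had 7.55 and 6.90, against 6.87, 6.73 and 7.24. Neither separated the groups. The 3 C/EBP factors of the list did not share a pattern. Cebpa had 8.24 and 7.55 in nTKO cells, against 8.29, 7.84 and 7.78 in nDKO cells, with its highest value in nDKO 1. The other two were highest in nTKO 1. Cebpb had 10.88 and 9.70 in nTKO cells, against 10.31, 9.96 and 10.05 in nDKO cells, and Cebpd had 10.27 and 9.44, against 9.22, 9.61 and 9.43. Nfkbiz, a co-factor of NF-kB on Lcn2, had 9.65 and 9.37 in nTKO cells, against 9.63, 9.76 and 9.55 in nDKO cells. The glucocorticoid receptor Nr3c1, which acts together with cytokines on acute-phase genes, was higher in both nTKO mice (0.33, limma adjusted p = 0.853). It was 1 of 3 genes of the 16 (Nr3c1, Nfkbia and Saal1) with both nTKO mice above every nDKO mouse, where the background was 8.13%.

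Other positive acute-phase proteins were measured for 21 of 25, with 0 passing and 1 higher at an unadjusted p under 0.05. Their median difference was 0.052, with 14 of 21 higher (60% of all genes), and 13 of 21 lay below the median gene level on every array. Ceruloplasmin (Cp), the copper-carrying ferroxidase, was among the bright ones, with 12.58 and 12.13 in nTKO cells, against 11.29, 12.01 and 11.90 in nDKO cells. Both nTKO mice were above every nDKO mouse, by a difference of 0.62 (limma adjusted p = 0.853), and nDKO 1 was the lowest, as for Lcn2 and Lbp. The protease inhibitor Serpina3n had 6.33 and 6.42 in nTKO cells, against 5.78, 5.84 and 6.08 in nDKO cells, a difference of 0.47 (SE 0.11) with the smallest p of the list (unadjusted 0.012, limma adjusted p = 0.853). Metallothionein 2 (Mt2) was lower in both nTKO mice (-0.42). Orm2, the neighbour and close relative of Orm1, lay between 2.61 and 2.84 on all arrays, without the step of Orm1 in nTKO 1. Both nTKO mice were above all nDKO mice for 2 of the 21 genes and below for 1, where the background was 8.13% and 4.71%. Of 8 measured negative acute-phase proteins, which fall in liver during inflammation, 0 passed, 1 was higher at an unadjusted p under 0.05 (Alb), and both nTKO mice were above all nDKO mice for 3 (Alb, Rbp4 and Ahsg), against 8.13% of all genes. The differences of these 3 genes were 0.23, 0.045 and 0.12, and 7 of the 8 genes were below the median gene level on every array.

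Receptors and binding partners of the members were measured for 15 of 17, with 0 passing and 0 at an unadjusted p under 0.05. The formyl peptide receptor Fpr2, through which serum amyloid A attracts neutrophils, had 8.46 and 4.91 in nTKO cells, against 6.22, 5.90 and 6.49 in nDKO cells. It was highest in nTKO 1 and lowest in nTKO 2, as S100a8 was, so that its group difference of 0.48 lay within the gap between the 2 nTKO mice. The high-density lipoprotein receptor Scarb1, which also takes up serum amyloid A, differed by -0.36, and Slc22a17, a receptor of Lcn2, by -0.26, both with overlapping groups. Epithelial NF-kB and interleukin-17 response genes, which often accompany Lcn2, were measured for 14 of 16, with 0 passing and 1 higher at an unadjusted p under 0.05 (Cxcl1). Of these 14, 13 had a higher nTKO mean (60% of all genes), with a median difference of 0.30. Of the 14, 9 were highest in nTKO 1 (30.8% of all genes) and 6 were lowest in nTKO 2 (17.5% of all genes). Both nTKO mice were above every nDKO mouse for 2 of the 14 (Cxcl1 and Cxcl2), where the background was 8.13%. The mucosal secretion receptor Pigr was bright in all mice (13.55 and 13.73 in nTKO cells, against 13.26, 13.58 and 13.59 in nDKO cells).

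The genes beside the Saa cluster differed little. On one side, Saal1, the gene next to Saa3, had 7.29 and 7.27 in nTKO cells, against 7.02, 7.16 and 7.06 in nDKO cells, a difference of 0.20 without overlap (limma adjusted p = 0.853). Beyond it, Tph1 (0.12) and Sergef (-0.04) overlapped between the groups. On the other side, Hps5 (0.06) and Gtf2h1 (0.12) overlapped, and Ldha, the glycolytic lactate dehydrogenase, was higher in both nTKO mice by 0.12. The 4 Saa genes between them differed by 0.98 to 2.05.

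The genes closest in pattern to a member were found by the root mean square difference of array values, each gene centred on its own mean over the 5 arrays. Among 8925 named genes at or above the median level, those nearest to Saa1 were Tmem267 (0.41), Saa3 (0.41), the glutathione transferase Gstt1 (0.48), the chemokine Cxcl11 (0.54) and the homeobox factor Pknox2 (0.57), where the median over all candidates was 1.06. Saa3 lay nearest to Cxcl11 (0.31), a ligand of CXCR3, then to Saa1 (0.41) and to Ccl28 (0.45), a mucosal chemokine. Cxcl11 measured 8.57 and 6.65 in nTKO cells, against 5.51, 6.59 and 6.65 in nDKO cells, high in nTKO 1 and low in nDKO 1 like Saa3. Hp, in contrast, was nearest to the chemokine Cxcl3 (0.28), the matrix protein Mgp (0.34) and Rnase4 (0.36), with a median over candidates of 0.85. Cxcl3 had 8.51 and 7.45 in nTKO cells, against 8.24, 6.78 and 6.80 in nDKO cells, so that nTKO 1 and nDKO 1 were its highest arrays. Lcn2 was nearest to Ndrg1 (0.05), Cited2 (0.06) and Spry2 (0.06), genes that vary little apart from a low value in nDKO 1, where the median over candidates was 0.29. With 5 arrays such neighbours are a description of these mice only.

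The differences were also taken with arrays left out or with age in the fit. Without both arrays that differed in squamous genes, nDKO 1 and nTKO 1, the nTKO mouse left was 16 weeks old and the nDKO mice 10.71 weeks. In that setting the nTKO mouse was higher than the mean of the remaining 2 nDKO mice by 1.47 for Saa1, 0.83 for Saa4, 0.81 for Hp, 0.61 for Saa3 and 0.55 for Saa2. In the same setting Lcn2 was at -0.20, Lbp at -0.05 and Orm1 at -0.27. Between the mice of nearly equal age, nTKO 2 and nDKO 1, Saa1 differed by 1.93, Saa3 by 1.67, Saa2 by 1.20 and Saa4 by 1.18. In that pair Lbp differed by 0.97, against 0.40 over all arrays, Lcn2 by 0.44, Orm1 by -0.31 and Hp by -0.48. The nDKO mouse of the pair was the lowest of the 5 arrays for Saa1, Saa2, Saa3, Lcn2 and Lbp. The pair also differed in squamous markers, with a mean log2 signal of 6.21 in nTKO 2 and 10.23 in nDKO 1. With log2 age as a covariate Saa1 was at 1.74, Saa3 at 1.24, Saa4 at 1.11 and Saa2 at 0.89, and Hp at -0.41. Since the groups did not overlap for the Saa genes, leaving out mice could not turn their sign, and the sign is no sign of stability. With 2 nTKO mice and 3 nDKO mice, each of these settings rests on very few animals.

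**Figure D4:**
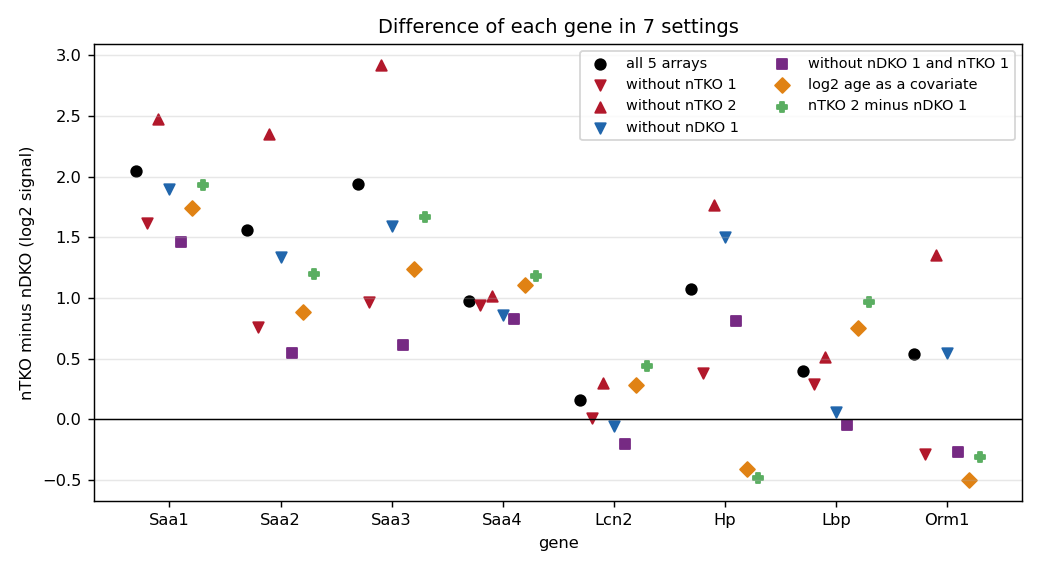
Difference between nTKO and nDKO means in log2 signal (vertical axis) for the 8 genes (horizontal axis), with all 5 arrays (black) and in 6 further settings. The points of Saa1 lie between 1.47 and 2.48, those of Saa3 between 0.61 and 2.92, and those of Orm1 between -0.50 and 1.36.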

How the data were processed

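Single-channel Affymetrix arrays of 5 mice (2 nTKO, 3 nDKO) were used. The authors deposited 1 log2 signal for each probe set and array, produced in the Transcriptome Analysis Console by RMA, per the submitters' processing notes (version not given in the sources used here). Because RMA forces a common distribution on the arrays, a change in the same direction in most genes would be lost, and background correction compresses the differences of dim probe sets. The number of arrays limits the precision, and no detection calls were used.

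The platform annotation gives exactly 1 gene symbol for 34945 of the 45037 probe sets, several for 932 and no symbol for 9160. Gene identifiers of 34741 were found in the RefSeq gene table of GRCm38.p6, and 0 symbols changed. A gene was represented by the brightest of its single-symbol probe sets, by the mean of the 5 arrays (18193 genes).

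Genotypes were compared over all genes with limma 3.58.1 in R 4.3.3 (lmFit, then eBayes with an intensity trend, no covariate, 3 residual and 1.23 prior degrees of freedom). P-values are two-sided, and the threshold is 0.05 after Benjamini-Hochberg adjustment. The fit was tested on simulated data. Members are given by values only. Named genes are the members, up to 5 genes per list with the smallest unadjusted p, inducers and partners named by role, and the 5 genes nearest in pattern to Saa1, Saa3, Lcn2 and Hp. Only some of these are printed. Genes picked out beyond them (among them the Saa neighbours, S100a8, S100a9, C1qb, C1qc and Dcn) were chosen after their values were seen. So were Csf3r, Il1r2, Cxcr2 and Itgam. The members and the lists were chosen with earlier results of these data known, and so were the promoter motifs. Alternatives were quantile normalization, median centring, log2 age, all probe sets, a block for the replicate number, a level filter, other variance models, array weights and leaving out each mouse. Leaving out nDKO 1 and nTKO 1, and nTKO 2 against nDKO 1 alone, were added after seeing the data. Some items, among them part of the genotype, are not reported here.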

Additional observations from a re-analysis of the deposited data

How the results depend on the processing

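No gene passed the limma test in any of the 15 alternatives (0 in each, against 0 with all arrays), and genes at an unadjusted p under 0.05 numbered between 442 and 2996 in the fits of all 18193 genes, against 689, and 401 of 9099 with the level filter. Saa1 differed by 1.62 to 2.48 with 1 mouse left out, and by 1.47 without both nDKO 1 and nTKO 1. The median difference over the 8 genes was 1.56 without nTKO 2 and between 0.57 and 1.56 with 1 mouse left out, against 1.03. The number of genes with a higher nTKO mean was 5 without nDKO 1 and nTKO 1, 6 between nTKO 2 and nDKO 1 alone (the pair of like age) and with log2 age, and 7 or 8 otherwise. The sign turned for Orm1 with log2 age (-0.50), in the pair of like age (-0.31), without nTKO 1 (-0.28) and without nDKO 1 and nTKO 1 (-0.27). It turned for Hp with log2 age (-0.41) and in the pair of like age (-0.48), for Lcn2 without nDKO 1 (-0.055) and without nDKO 1 and nTKO 1 (-0.20), and for Lbp without nDKO 1 and nTKO 1 (-0.05). With 1 mouse left out, Lcn2 lay between -0.055 and 0.305 and Orm1 between -0.28 and 1.36. The cause was not tested. Quantile normalization and median centring moved Saa1 to 2.07 and 2.04. Both could change little, since RMA had already given the arrays a common distribution. With the replicate number as a block Saa1 was at 2.23 and 0 genes passed. nDKO 3 has no nTKO mouse of the same number, so the block gave the same differences as leaving out nDKO 3. Deviations from the genotype mean had r = 0.424 over genes between nTKO 1 and nDKO 1, and 0.338 between nTKO 2 and nDKO 2. The 2 values are not independent, since the deviations of the 2 nTKO mice are equal and opposite. nTKO 1 and nDKO 1 are also the arrays with high squamous genes. There are only 2 pairs of the same number and the labels give no shared animal, so the pairing was not used. Saa2, Saa4 and Orm1 lie below the median gene level, where RMA compresses differences.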
